A study of Homo sapiens with 27 samples.

Results

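The genes described here are 9 genes of MHC class I antigen presentation, chosen by name from the pathway with earlier results of these data known. By symbol they match 9 of the 57905 gene identifiers of the count table. They are the heavy chain genes HLA-B, HLA-C, HLA-E and HLA-F, the light chain gene B2M, the peptide transporter genes TAP1 and TAP2, the tapasin gene TAPBP and the transcriptional activator gene NLRC5. Class I molecules show fragments of the cell's own proteins at its surface. The proteasome and cytosolic peptidases make the peptides, the TAP1-TAP2 heterodimer carries them into the endoplasmic reticulum, tapasin holds empty class I molecules at the transporter, and a heavy chain, a peptide and beta-2 microglobulin leave together for the surface. Cytotoxic T cells read the peptide, and natural killer cells read the presence of the molecule, with HLA-E being the ligand of the NKG2A receptor.

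RNA-seq was performed in U937 cells, an established human line of monocytic character that the labels describe as myeloid leukemia cells. Matrine, an alkaloid of the herb Sophora flavescens, was given at 0.8 mg/ml, and 3 libraries each were made from control cells, from cells exposed for 30 min and from cells exposed for 24 h, so that early and late transcript responses can be compared. Libraries of the HL-60 and K562 lines were not analysed here. All groups are the same single cell line in the same medium, and the control labels give no time in culture. Time of exposure and time in culture can therefore not be told apart. The labels call the libraries replicates without saying that they came from separate cultures, so the p-values measure the spread between these libraries, which may be technical.

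Library totals lay between 17314931 and 21930018 counts, with 4.99% to 5.28% of each coming from its 10 highest genes. Of 12 myeloid markers, 9 had a mean level above 1 FPKM (fragments per kilobase of transcript, scaled to sequencing depth, so a level per length). Their summed level was 1358 to 1516 FPKM in controls, 1444 to 1476 at 30 min and 1944 to 2072 at 24 h. Much of this sum was ELANE, at 885.1 FPKM in controls and 1378 at 24 h. The markers CSF1R, CD68 and MPO were low, at 0.627, 0.557 and 0.313 FPKM on average in controls. The markers did not move one way at 24 h, with ITGB2, ITGAM and CSF3R called higher, and SPI1 at -0.33, LYZ at -0.32 and CD33 at -0.09 on the log2 scale, none of these 3 called. MPO was also called higher, at 2.48 on the log2 scale. Its mean at 24 h was 1.84 FPKM, and it was tested only through that level. T cell markers CD3D, CD3E and CD3G, the NK marker KLRD1 and the B cell marker MS4A1 were at 0 counts in all 9 libraries, whereas NKG7 was high at 173.4, 177.3 and 284.8 FPKM on average in the 3 groups. B cell markers summed to at most 5.46 FPKM, erythroid markers to at most 0.42 and fibroblast and epithelial markers to at most 0.13. In bulk RNA, a change in how many cells carry a transcript and a change in the amount per cell cannot be told apart, and the part of these marker changes in the values below was not tested.

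Upstream sequences of the genes are shown first, because class I promoters are known for a shared module in which RFX, CREB/ATF and NF-Y factors bind and through which NLRC5 acts, together with upstream NF-kB and interferon response sites. A promoter, taken as the 250 bases before to 50 bases after a transcript's start, was present for 7 of the 9 genes in the RefSeq set (GRCh38.p14), with 8 promoters in all. HLA-E and NLRC5 had no entry. Capitals mark matches, on either strand, to CCAAT (the NF-Y box, ATTGG on the opposite strand), TGACGC (a CREB/ATF-type element), GAAANNGAA (an interferon response type element) and GGGGATTCC (an NF-kB type element). Overlapping GAAANNGAA matches run together in the print. Sequence inside annotated untranslated regions was left out, or kept to a site of 30 bases, so some matches of HLA-B and HLA-F are not in the printed stretches.

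Stretches of the heavy chain genes and B2M are printed with the matches they hold, each written 5′ to 3′ on the gene's own strand. Among these printed stretches only that of HLA-C holds both TGACGC and CCAAT. The whole HLA-B promoter also held both, in bases left out of its print. There TGACGC lay 106 bases and CCAAT 81, 74 and 56 bases before the start.
HLA-B, minus strand, chr6:31357294-31357366: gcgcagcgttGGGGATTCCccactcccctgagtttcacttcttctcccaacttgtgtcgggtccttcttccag
HLA-C, minus strand, chr6:31272134-31272294: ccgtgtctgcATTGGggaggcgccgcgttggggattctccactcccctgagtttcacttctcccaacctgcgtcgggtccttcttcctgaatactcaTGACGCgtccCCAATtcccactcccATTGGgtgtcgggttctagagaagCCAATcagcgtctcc
HLA-F, plus strand, chr6:29723269-29723305: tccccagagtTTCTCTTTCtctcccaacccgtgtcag
B2M, plus strand, chr15:44711363-44711482: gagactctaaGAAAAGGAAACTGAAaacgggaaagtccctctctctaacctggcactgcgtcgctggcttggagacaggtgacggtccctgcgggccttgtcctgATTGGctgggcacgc

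The transporter genes and TAPBP are printed because TAP1 and TAP2 moved in opposite directions at 24 h while TAP1 and TAPBP rose.
TAP1, minus strand, chr6:32853817-32853954: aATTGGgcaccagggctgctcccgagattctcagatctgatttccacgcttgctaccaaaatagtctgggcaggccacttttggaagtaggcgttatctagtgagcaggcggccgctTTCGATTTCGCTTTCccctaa
TAP2, minus strand, chr6:32838769-32838798: cGAAAGCGAAagctgcccgagcccTGACGC
TAPBP, minus strand, chr6:33314079-33314108: ccctttggagGAAAGTGAAAGTGAAaggag

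Of the 7 genes with a promoter, 5 held CCAAT, as did 34.6% of all 35116 promoters. GAAANNGAA was present in HLA-F, B2M, TAP1, TAP2 and TAPBP, so in 5 of 7 genes against 8.11% of all promoters. TGACGC was present in HLA-B, HLA-C and TAP2, against 9.14% of all. The GGGGATTCC sequence was found in HLA-B alone of the 7, against 0.285% of all, and the E-box CACGTG in none of the 7, against 7.26%. TAP2, the gene that fell, held both a GAAANNGAA and a TGACGC match within its first 60 bases, at 58 and 35 bases before the start. These matches are letters in a window and show no binding.

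The 9 genes are listed here by their GENCODE v44 positions in GRCh38, which serve as an address only, since the sources used here name both hg38 and GRCh37 for the mapping. HLA-F (ENSG00000204642, chr6:29722775-29738528), HLA-E (ENSG00000204592, chr6:30489509-30494194), HLA-C (ENSG00000204525, chr6:31268749-31272130) and HLA-B (ENSG00000234745, chr6:31353872-31367067) lie in the class I part of the MHC. TAP2 (ENSG00000204267, chr6:32821833-32838739), TAP1 (ENSG00000168394, chr6:32845209-32853816) and TAPBP (ENSG00000231925, chr6:33299694-33314284) lie further along chromosome 6. B2M (ENSG00000166710) is at chr15:44711358-44718851 and NLRC5 (ENSG00000140853) at chr16:56989485-57083531. Counts cover the exons of a gene, and how reads shared between the closely similar heavy chain genes were assigned is not given in the sources used here.

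After 24 h of matrine, the light chain B2M, the heavy chain HLA-E, the transporter subunit TAP1 and tapasin rose by 1.53-fold to 1.72-fold against control, whereas the other transporter subunit, TAP2, fell to 0.591 of its control level. HLA-B, HLA-C and NLRC5 were higher by 1.17-fold to 1.25-fold, which passed the adjusted p but not the fold threshold, NLRC5 not under every alternative. Passing the adjusted p was common at 24 h against control, with 7627 of all 12035 genes tested. After 30 min none of the 8 tested MHC class I genes passed the test. A gene was called when its Benjamini-Hochberg adjusted p in edgeR's quasi-likelihood test was below 0.05 and its fold change at least 1.5, and genes with a mean level above 1 FPKM over the 6 libraries compared were tested. Of the 9 genes 8 were tested, HLA-F being too low.

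**Figure D1:**
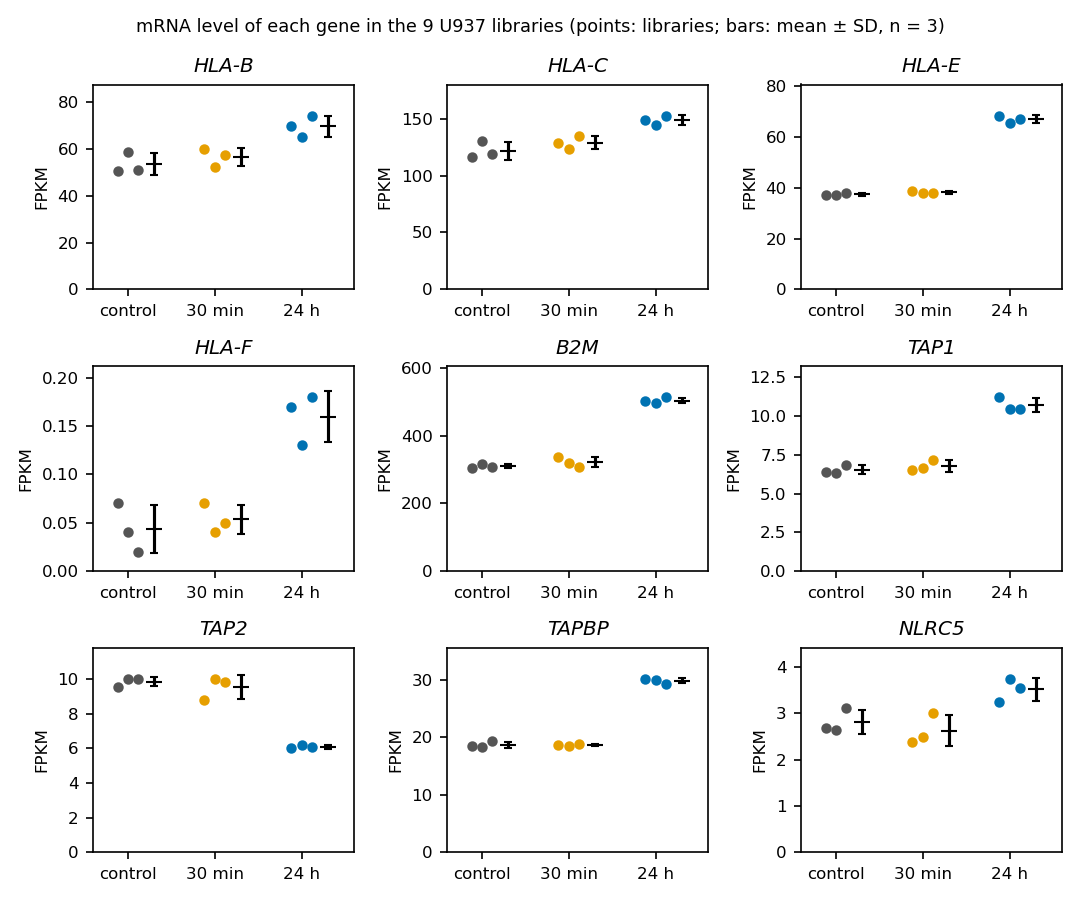
Level of each of the 9 genes in FPKM (vertical axes, linear and from 0) in the 3 groups, with a point for each library and a bar for mean ± SD (n = 3). The 24 h libraries lie above the control libraries in 8 panels and below them in the TAP2 panel, whereas the 30 min libraries overlap the controls in all 9.

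Against control at 24 h, 4 of the 8 tested genes were called higher, where 14.7% of the 12035 genes tested were, and 1 was called lower, where 11.6% were. The FPKM ranges of the control and 24 h libraries did not overlap for any of the 9 genes, 8 of which were higher and 1 lower. That was also so for 69.7% of all genes tested, so a lack of overlap was common at 24 h. The median log2 fold change of the 8 tested genes was 0.47, and that of all genes tested was -0.0056. At 24 h against 30 min, 3 genes were called higher (15.7% of 11981 genes tested) and 1 lower (11.3%), and ranges did not overlap for 9 of 9 genes (68.6% of all tested). The median of the 8 genes was then 0.46, beside 0.02 for all genes. Both comparisons use the same 24 h libraries.

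At 30 min against control, 0 of the 8 tested genes were called higher (0.0949% of 11587 genes tested) and 0 lower (0.544%), and the FPKM ranges overlapped for all 9 genes (13.8% of all genes tested did not overlap). By edgeR, 0 of the 8 genes had an unadjusted p under 0.05, and limma on FPKM and DESeq2 also called 0. Log2 fold changes ran from -0.09 for NLRC5 to 0.09 for HLA-B and HLA-C, with standard errors of 0.05 to 0.09 and adjusted p-values of 0.62 to 0.98. The median log2 fold change was 0.06, against -0.0043 over all genes tested. These values do not show that the genes were unaffected at 30 min. Over all genes, 188 had an adjusted p below 0.05 in this comparison.

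**Figure D2:**
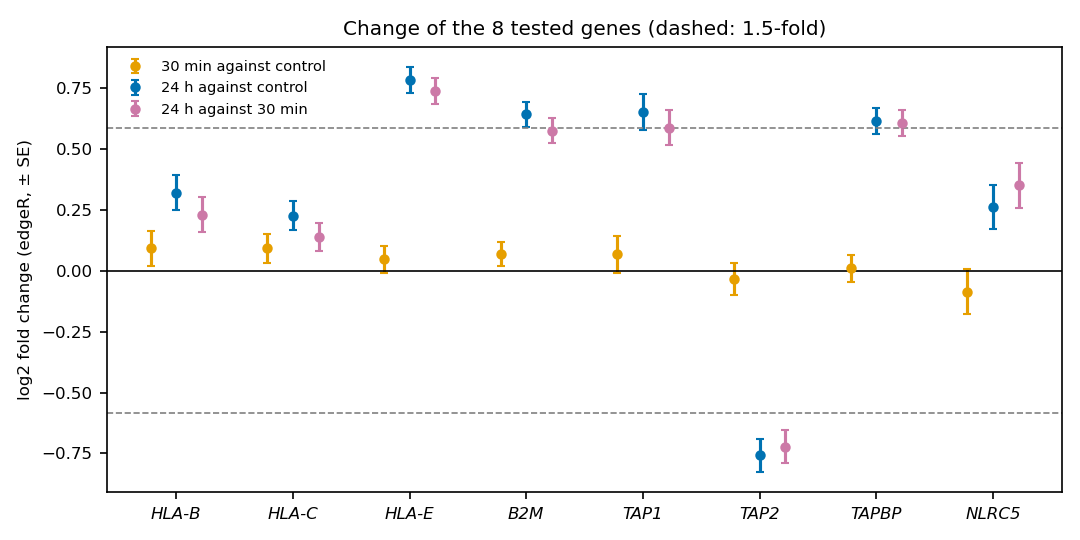
Log2 fold change ± SE from edgeR (vertical axis) of the 8 tested genes (horizontal axis) in the 3 comparisons, with dashed lines at 1.5-fold. At 24 h against control HLA-E, B2M, TAP1 and TAPBP lie above the upper line and TAP2 lies below the lower line at -0.76, while all 30 min values lie between -0.09 and 0.09.

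HLA-E encodes a heavy chain of limited variability whose surface form carries leader peptides of other class I chains. Its level was 36.97, 37.11 and 37.97 FPKM in controls, 38.84, 37.97 and 37.83 FPKM at 30 min, and 68.32, 65.37 and 67.14 FPKM at 24 h. The 24 h libraries were clearly apart from the other 6, which lay within 2 FPKM of each other. The log2 fold change at 24 h was 0.78 (SE 0.05, edgeR quasi-likelihood test with Benjamini-Hochberg adjustment, adjusted p = 1.1e-10) against control and 0.74 (SE 0.05, adjusted p = 2.4e-10) against 30 min.

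HLA-B encodes a highly variable heavy chain that presents peptides to cytotoxic T cells. Its level was 50.70, 58.89 and 51.23 FPKM in controls, 59.95, 52.34 and 57.62 FPKM at 30 min, and 69.87, 65.30 and 74.26 FPKM at 24 h. The control and 30 min libraries were mixed, and the lowest 24 h library lay above all 6 of them. On the log2 scale the 24 h change was 0.32 (SE 0.07, adjusted p = 0.00062), which is under the fold threshold, and 0.23 (adjusted p = 0.0082) against 30 min, both by edgeR's quasi-likelihood test.

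HLA-C, the other classical heavy chain gene of the set and also a ligand for NK cell receptors, had the highest level of the heavy chain genes. It stood at 116.0, 130.8 and 118.9 FPKM in controls, 128.3, 123.3 and 134.7 FPKM at 30 min, and 149.2, 144.6 and 152.6 FPKM at 24 h. The groups were ordered like those of HLA-B, with overlap of control and 30 min and none with 24 h, and the fitted change was the smallest of the 8 genes. At 24 h it amounted to 0.23 on the log2 scale (SE 0.06, edgeR adjusted p = 0.002) against control and 0.14 (SE 0.06, adjusted p = 0.044) against 30 min. The last p was above 0.05 under several alternatives, among them DESeq2 (adjusted p = 0.074).

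The unequal changes brought HLA-E closer to HLA-B on the FPKM scale, while the order of the mean FPKM was kept. Levels of 2 genes set side by side, and shares of a sum, depend on the gene lengths used for FPKM. The annotation behind those lengths is not given in the sources used here. In GENCODE v44 the merged exons span 4623 bases for HLA-B and 2922 for HLA-E. In controls HLA-E lay below HLA-B in FPKM with no overlap between their ranges, and at 24 h the ranges of HLA-E (65.37 to 68.32 FPKM) and HLA-B (65.30 to 74.26 FPKM) overlapped. HLA-E made up 13.6% ± 0.80 (SD, n = 3) of the summed FPKM of the 10 HLA class I genes and pseudogenes in controls, 13.3% ± 0.58 at 30 min and 17.4% ± 0.41 at 24 h. HLA-C went from 44.3% ± 0.59 in controls to 38.6% ± 0.31 at 24 h. HLA-B went from 19.5% ± 0.68 to 18.1% ± 0.55. For each of these shares the 24 h libraries did not overlap the controls, and a 2-sided exact permutation test gave p = 0.1, the smallest value that 3 against 3 libraries allow (0.15 after Benjamini-Hochberg adjustment over 18 tests of ratios and shares). The ratios and shares were chosen after values had been seen.

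HLA-F encodes a non-classical heavy chain, and few reads came from it. It had 7, 4 and 2 counts in controls, 7, 4 and 5 at 30 min, and 16, 12 and 18 at 24 h, or 0.02 to 0.18 FPKM. The 24 h libraries did not overlap the other 6, yet the 3 groups rest on only 13, 16 and 46 counts in total. Without the filter on low expression its log2 fold change at 24 h was 1.57 (SE 0.59, edgeR adjusted p = 0.027) against control and 1.37 (SE 0.57, adjusted p = 0.05, not called) against 30 min. The antisense gene HLA-F-AS1, which shares 535 exon bases with HLA-F, had 62, 81 and 236 counts in the 3 groups, and without a known strand setting the reads of both cannot be told apart.

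When the counts of all 10 HLA class I genes and pseudogenes were summed to 1 feature, so that reads assigned to a wrong copy did not matter, the log2 fold change was 0.45 (SE 0.06, edgeR adjusted p = 7.7e-07) at 24 h against control. It was 0.37 (adjusted p = 9.5e-06) against 30 min and 0.08 (adjusted p = 0.69) at 30 min against control. The summed heavy chains were thus higher at 24 h by less than 1.5-fold.

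B2M encodes beta-2 microglobulin, the light chain that every class I heavy chain needs to reach the surface, and was the most abundant of the 9 transcripts. Its level was 305.3, 316.8 and 308.9 FPKM in controls, 339.0, 320.1 and 308.3 FPKM at 30 min, and 502.4, 498.0 and 514.7 FPKM at 24 h. All 24 h libraries were high, and the highest of the other 6 was the first 30 min library. B2M had a log2 fold change of 0.64 (SE 0.05, edgeR adjusted p = 9.9e-10) against control, a called rise. Against 30 min it was 0.57 (SE 0.05, adjusted p = 4.8e-09), just under the fold threshold of 0.585 on the log2 scale, and it passed at 0.61 without the first 30 min library. It also passed with library totals alone (0.65), upper quartile factors (0.62), a mean FPKM above 5 (0.66) and limma at either pseudocount (0.65).

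B2M over the summed class I heavy chains was 1.13 ± 0.04 (SD, n = 3) in controls, 1.13 ± 0.07 at 30 min and 1.31 ± 0.03 at 24 h as a ratio of FPKM. Over HLA-B, HLA-C, HLA-E and HLA-F alone the ratio was 1.46 ± 0.06, 1.44 ± 0.09 and 1.77 ± 0.03. The light chain transcript thus gained on those of the heavy chains with either denominator, without overlap between the 24 h libraries and the others (exact permutation p = 0.1, adjusted 0.15).

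TAP1 encodes a subunit of the peptide transporter. Its level was 6.40, 6.35 and 6.87 FPKM in controls, 6.49, 6.67 and 7.19 FPKM at 30 min, and 11.22, 10.46 and 10.45 FPKM at 24 h. The 24 h libraries lay well above the other 6, which overlapped. The log2 fold change was 0.65 (SE 0.07, edgeR adjusted p = 1.6e-07) against control. Against 30 min it was 0.59 (SE 0.07, adjusted p = 5.8e-07), so close to the threshold that the call was lost without control replicate 2 (0.58), 30 min replicate 1 (0.55), 30 min replicate 2 (0.56) or 24 h replicate 1 (0.55). It was also lost with DESeq2 (0.58), with its size factors in edgeR (0.58), with a filter on either group's mean (0.57), without the expression filter (0.52) and with TMM factors from all genes (0.52). The antisense gene PSMB8-AS1 shares 672 exon bases with TAP1 and had 1030, 1066 and 1383 counts in the 3 groups, beside 1778, 2021 and 3186 for TAP1.

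TAP2 encodes the other subunit of the same heterodimer and went the other way. Its level was 9.56, 10.00 and 9.98 FPKM in controls, 8.77, 10.01 and 9.85 FPKM at 30 min, and 5.99, 6.18 and 6.06 FPKM at 24 h. The 24 h libraries were nearly equal and below all others, and the first 30 min library was the lowest of the other 6. TAP2 fell by 0.76 on the log2 scale (SE 0.07, edgeR adjusted p = 6.8e-09) against control and by 0.72 (SE 0.07, adjusted p = 1.3e-08) against 30 min. A gene on the same strand, ENSG00000250264, shares 2023 exon bases with TAP2 and had 39, 53 and 27 counts in the 3 groups, beside 3610, 3824 and 2435 for TAP2.

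The ratio of TAP1 to TAP2 in FPKM therefore rose. It was 0.664 ± 0.027 (SD, n = 3) in controls and 0.712 ± 0.040 at 30 min, with overlapping ranges, and 1.76 ± 0.096 at 24 h, with a lowest 24 h library of 1.69 and a highest library among the other 6 of 0.740. The exact permutation test gave p = 0.1 (adjusted 0.15). Being a ratio within a library, it does not depend on how libraries are scaled. Whether it lies below or above 1 does depend on the gene lengths used for FPKM, unlike its change between groups. The annotation behind those lengths is not given in the sources used here. In GENCODE v44 the merged exons span 4738 bases for TAP1 and 10357 for TAP2.

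**Figure D3:**
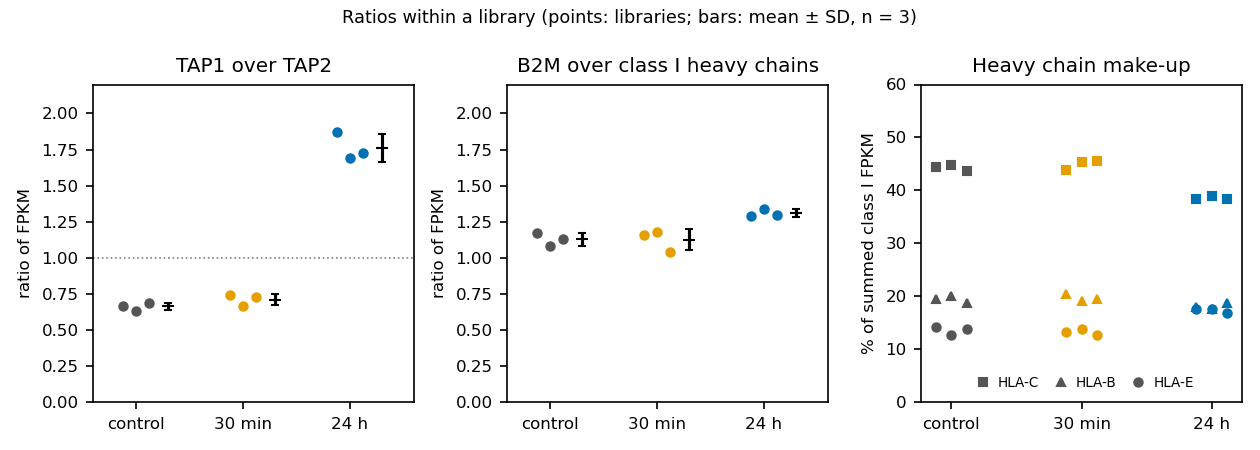
Ratio of TAP1 to TAP2 (left), ratio of B2M to the summed HLA class I heavy chains (middle), and HLA-B, HLA-C and HLA-E as percent of that sum (right), all from FPKM, with a point for each library and, in the ratio panels, a bar for mean ± SD (n = 3). TAP1 over TAP2 goes from 0.664 in controls to 1.76 at 24 h, B2M over heavy chains from 1.13 to 1.31, and HLA-E from 13.6% to 17.4%.

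TAPBP encodes tapasin, which bridges class I molecules and the transporter and favours the loading of tightly bound peptides. Its level was 18.49, 18.23 and 19.27 FPKM in controls, 18.61, 18.40 and 18.85 FPKM at 30 min, and 30.13, 29.95 and 29.28 FPKM at 24 h. The 30 min libraries lay inside the control range, and the 24 h libraries were apart from both. The log2 fold change was 0.61 (SE 0.05) both against control (edgeR adjusted p = 4.9e-09) and against 30 min (adjusted p = 5.4e-09). It was 0.56 against control, and no longer called, without the filter on low expression or with scaling factors from all genes, and against 30 min it was 0.54 in both of those fits and 0.58 without 30 min replicate 2, likewise not called.

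NLRC5 encodes the activator that drives class I heavy chain, B2M and TAP1 promoters in lymphoid and myeloid cells. Its level was low, at 2.69, 2.64 and 3.11 FPKM in controls, 2.38, 2.50 and 3.01 FPKM at 30 min, and 3.25, 3.75 and 3.56 FPKM at 24 h. The lowest 24 h library lay just above the highest control. Its log2 fold change was 0.26 (SE 0.09, edgeR adjusted p = 0.017) against control and 0.35 (SE 0.09, adjusted p = 0.0023) against 30 min, so NLRC5 was not called in either. Against control the adjusted p was 0.075 without control replicate 1, 0.062 without control replicate 2, 0.081 without 24 h replicate 2, 0.051 without 24 h replicate 3 and 0.051 with TMM factors from all genes.

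**Figure D4:**
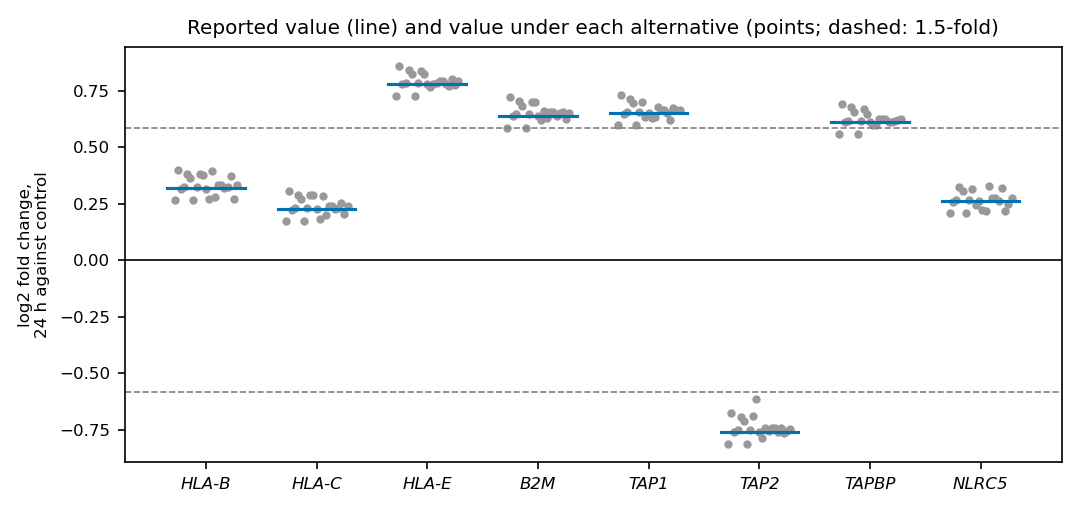
Log2 fold change at 24 h against control of the 8 tested genes (vertical axis), as reported (blue line) and under each alternative fit (grey points), with dashed lines at 1.5-fold. Every gene keeps its sign, with TAP2 between -0.81 and -0.62, and among the 5 called genes only TAPBP has points inside the 1.5-fold lines, at 0.56.

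The other genes of the pathway were followed in 11 lists of 121 genes in all, of which 89 were tested at 24 h against control. Of these 23 were called higher and 4 lower (14.7% and 11.6% of all genes tested), and the log2 fold changes of the 89 had a median of 0.10. Among the 23 are SOCS1, HLA-DMA, IFI30 and ULBP1, which were tested only through their 24 h levels. Most lists are so short that their counts cannot be set against the shares of all genes. Against the 30 min libraries, 24 of 86 genes were higher at 24 h and 5 lower (15.7% and 11.3% of all), and at 30 min against control 0 of 84 were called. All adjusted p-values in the following are from edgeR's quasi-likelihood test at 24 h against control.

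The heavy chain gene MR1, outside the 9 genes and known for presenting vitamin B metabolites, rose by 1.12 (SE 0.09, adjusted p = 6.7e-10). Of 10 tested genes for peptide loading and trimming in the endoplasmic reticulum, 1 was called higher and 0 lower, with a median of -0.28, while at adjusted p below 0.05 alone 2 were higher and 6 lower. The riser was TAPBPL, a tapasin relative that edits peptides outside the loading complex, at 1.03 (SE 0.11, adjusted p = 4.9e-08). Of the chaperones that share the loading complex with tapasin, CALR was at -0.42, CANX at -0.32 and PDIA3 at -0.25, all under the fold threshold, and the trimming peptidase ERAP1 at 0.47 was not called either.

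The proteasome genes split. Of 7 genes listed for the immunoproteasome and for proteasome activators in general, PSMB9 rose by 0.62 (SE 0.12, adjusted p = 9.6e-05). The activator gene PSME3 fell by 0.80 (SE 0.05, adjusted p = 3.4e-11), and the list median was 0.0044. PSMB9 lies next to TAP1 in the opposite orientation, with starts 488 bases apart. PSMB8, a catalytic subunit encoded in the same region, was at -0.44 and PSMB10 at 0.42, both not called. Of the 3 constitutive counterparts, PSMB5 fell by 0.76 and PSMB7 by 0.62 and PSMB6 was at -0.57, not called. Of 6 tested cytosolic peptidases, THOP1, which destroys many class I peptides, fell by 0.66 (adjusted p = 1e-08) and the other 5 were not called.

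Of 22 tested genes for factors of class I transcription, 5 were called higher and 0 lower, with a median of -0.03, while at adjusted p below 0.05 alone 7 were higher and 9 lower. IRF7 rose by 2.26 (SE 0.14, adjusted p = 1.7e-11), STAT2 by 2.00 (SE 0.08, adjusted p = 1.2e-14), IRF1 by 0.91 (SE 0.11, adjusted p = 3.8e-07), IRF2 by 0.89 (SE 0.10, adjusted p = 2.4e-07) and STAT3 by 0.60 (SE 0.07, adjusted p = 8.5e-08). These are factors of interferon and cytokine signalling, with IRF2 known both as an activator and as a competitor of IRF1. RFX5, a subunit of the RFX complex, was at 0.04 and not called. Of 9 interferon receptor and kinase genes, 3 rose: SOCS1, an inhibitor of JAK kinases, by 2.51 (SE 0.28), JAK2 by 0.77 (SE 0.14) and TYK2 by 0.76 (SE 0.06). SOCS1, at 0.437 FPKM on average in controls and 2.64 at 24 h, was tested only through its 24 h level, so its rise is no independent evidence. Of 20 interferon-stimulated genes only 9 were expressed enough to be tested, of which IFIT3 (1.23), IFI6 (1.07) and DTX3L (0.65) were called higher and 0 lower.

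Genes of class II presentation were mostly too low for testing, with 5 of 14 tested. CTSS rose by 0.89. HLA-DMA (1.04) and IFI30 (0.76) were also called, but with control means of 0.750 and 0.767 FPKM they passed the filter only through the 24 h libraries, while CIITA, the class II counterpart of NLRC5, stayed between 0.05 and 0.06 FPKM on average and was not tested. Of 8 tested genes of class I turnover, SUSD6, TMEM127 and SYVN1 rose by 0.61, 0.69 and 0.60, with SUSD6 and SYVN1 just above the fold threshold. SUSD6 and TMEM127 are known to act together in the removal of class I molecules from the surface. Of 7 tested genes for stress ligands and receptors, MICA, a ligand of the activating NK receptor NKG2D, rose by 0.84. ULBP1, another such ligand, was called at 0.70, but with a control mean of 0.880 FPKM it too passed the filter only through the 24 h libraries.

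**Figure D5:**
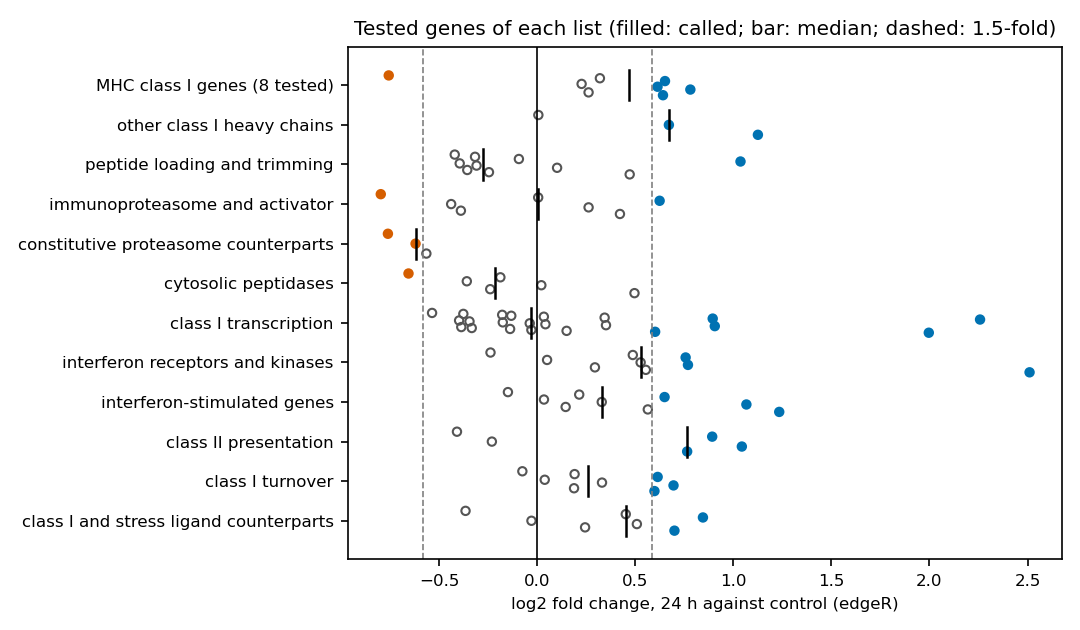
Log2 fold change at 24 h against control (horizontal axis, edgeR) of each tested gene in the 9-gene set (top row, 8 genes) and in the 11 lists of other pathway genes, with called genes filled, a bar for the list median and dashed lines at 1.5-fold. The constitutive proteasome genes have a median of -0.62 and the interferon receptor and kinase genes one of 0.53. IRF7 lies at 2.26, STAT2 at 2.00 and SOCS1, which was tested only through its 24 h level, at 2.51.

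Over the 9 libraries, each gene's log2 level was also compared with the mean standardised profile of the 8 tested genes. HLA-B, HLA-C, HLA-E, B2M, TAP1, TAPBP and NLRC5 had a Pearson r of 0.80 (NLRC5) to 0.97 (TAP1) with this mean and TAP2 one of -0.94, each gene being part of the mean. Of 11505 other genes, 819 had an r above 0.95, and the libraries of 1 group share treatment and time, so a likeness of this size was common. The most alike were GUSB (lysosomal beta-glucuronidase, r = 0.997), HPS1 (0.996), CUL7 (0.996), AP5Z1 (0.996) and the histone variant gene MACROH2A1 (0.996). The most opposite were NAA25 (-0.996), MTAP (-0.995) and XRCC2 (-0.993). GUSB went from 73.7 FPKM in controls to 107.3 at 24 h, and NAA25 from 6.19 to 3.32.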

How the data were processed

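Per the labels, libraries were made from total RNA of U937 cells with the VAHTS mRNA-seq V3 kit. The authors aligned reads with HISAT2 (2.0.1 in the submitters' processing notes, after cutadapt 1.9.1) and deposited unnormalized counts per gene from HTSeq 0.6.1 and FPKM values made from them. The paper's methods name hg38 and the processing notes GRCh37. Which annotation release, strand setting and rule for multiply mapped reads were used is not given in the sources used here. Of 57905 identifiers, 51996 were matched to a symbol through GENCODE v44.

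From the deposited counts, edgeR 4.0.16 (R 4.3.3) was fitted to all 9 libraries with the group as the only term and TMM factors from the genes tested. The quasi-likelihood test was run for each comparison on genes with a mean FPKM above 1, with Benjamini-Hochberg adjustment over all of them, and SEs were taken as the fold change (log2) divided by the square root of F. Alternatives were limma 3.58.1 on log2 FPKM (pseudocount 0.1 or 1), DESeq2 1.42.0, other scalings, filters and fold thresholds, and each library left out. Scripts were tested on simulated data. Exact permutation tests of ratios and shares were 2-sided. Replicates differed by more than sampling noise (chi-square per degree of freedom 2.14 to 11.9), so all were kept.

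The 9 genes and the lists were chosen with earlier results of these data known. Named from each list were the called genes (at most 4, by size), all called transcription factors, and the 5 genes most like and 3 most opposite to the mean profile. CALR, CANX, PDIA3, ERAP1, PSMB8, PSMB10, PSMB6, RFX5 and CIITA were named after their values were seen. Some genes of the lists are not reported here by name. Each deposited column was mapped to its library by name. Fold changes understate low genes on the log2(FPKM + pseudocount) scale.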

Additional observations from a re-analysis of the deposited data

Results flagged for a closer look

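For 4 genes the effect of matrine at 24 h differed from that at 30 min by the test of the difference itself, which is the comparison of the 24 h with the 30 min libraries in the same fit (edgeR's quasi-likelihood test, called at an adjusted p below 0.05 and at least 1.5-fold). HLA-E differed by 0.74 on the log2 scale and was higher in 3 of 3 libraries at 24 h than in any at 30 min. TAPBP differed by 0.61 and TAP1 by 0.59, again with 3 of 3 libraries higher. Neither was called without the expression filter or with TMM factors from all genes (0.54 and 0.52), nor was TAP1 with DESeq2 (0.58). TAP2 differed by -0.72, with 3 of 3 libraries lower. Since 15.7% of all genes tested were called higher and 11.3% lower in this comparison, such differences were frequent at 24 h.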

How the results depend on the processing

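The 8 tested genes were set against the alternatives in 573 cases, which include other fold thresholds applied to the unchanged fit. Calls lost at 2-fold, or gained at 1.2-fold or with no fold threshold, came from the moved threshold alone. Of the 573 cases, 528 kept both their direction and their side of the threshold, 24 lost and 16 gained a call, and 5 changed sign. All 5 were at 30 min against control, where no gene was called: TAP2 became 0.0264 without matrine 30 min replicate 1, and TAPBP became -0.0037 with library totals alone, -0.003 and -0.0029 with limma at a pseudocount of 0.1 and 1, and -0.0002 without control replicate 2. Over all left-out libraries TAP2 lay between -0.0519 and 0.0264 there and TAPBP between -0.0002 and 0.0445.

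With no fold threshold, 3688 of all 12035 genes tested were higher and 3939 lower at 24 h against control. Against 30 min these were 3981 and 3844 of 11981. Of the 8 tested MHC class I genes, 7 were then higher at 24 h against either group, and at 2-fold 0 were higher and 0 lower. At 24 h against 30 min, 5 were higher at 1.2-fold, 1 without the expression filter and 1 with TMM factors from all genes (an alternative added after seeing the data), and limma with a pseudocount of 1 called 0 lower. For the lists at 24 h against control, the 23 higher became 13 at a mean FPKM above 5, 39 with no fold threshold, 36 at 1.2-fold and 8 at 2-fold. The 4 lower became 7 without the filter, 2 at a mean FPKM above 5, 2 with limma at a pseudocount of 1, 28 with no fold threshold, 20 at 1.2-fold and 0 at 2-fold. Against 30 min, the 24 higher became 13, 40 with no fold threshold and 10 at 2-fold, and the 5 lower became 3 at a mean FPKM above 5, 25, 20 at 1.2-fold and 0. With other fold thresholds only the threshold changed, and a mean FPKM above 5 also left fewer genes to test. Without the filter, TAPBP and TAP1 at 24 h against 30 min had nearly the values they had with TMM factors from all genes (0.54 and 0.52 in both). For the other moves the cause was not tested.

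With each library left out in turn, 4 genes stayed higher and 1 lower at 24 h against control, and 1 to 3 were higher and 1 lower against 30 min, the 1 being without matrine 30 min replicate 2. For the lists these ranges were 20 to 24 higher and 3 to 6 lower against control, and 19 to 25 and 5 to 6 against 30 min. No call was made at 30 min. With the replicate number as a block the counts were the same (4 and 1 for the genes at 24 h against control, 3 and 1 against 30 min). Deviations from the group mean correlated at -0.159 to 0.103 between same-numbered libraries and at -0.154 to 0.188 between others. By this measure the numbers showed no pairing, and whether libraries shared a culture or batch was not tested.

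Across all genes, 44.1% of calls at 24 h against control were lower, and 36.6% with library totals, 51.3% with TMM factors from all genes and 37.2% with limma. Against 30 min, the 41.9% became 32.2%, 49.9% and 32.6%. HLA-F had at most 18 counts in a library, so its values are uncertain, and why its counts were low was not tested.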
